A study of Homo sapiens with 16 samples.

Results

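The chromatin of 10 neural crest transcription factor genes, PAX7, FOXD3, PAX3, MSX1, MSX2, TFAP2A, TFAP2B, SNAI2, SOX9 and SOX10, was described in TC-32 and TC-71 cells. The genes were chosen by name, and each was given a fixed hg19 window of 40 to 170 kb around it, 760 kb in all. Every deposited peak that overlapped a window by at least 1 bp was taken, which gave 97 of the 114213 intervals in 6 peak lists. Both cell lines are established ones from Ewing sarcoma, a bone and soft tissue tumour of the young, and the labels name no genetic change or treatment of the cells. They give diagnosis as the phase of therapy for TC-32 and post-chemotherapy for TC-71. Each line was profiled by chromatin immunoprecipitation with sequencing for BORIS, SMC1 and H3K27ac, with input chromatin, in 2 samples per line and antibody (16 samples). Both samples of a pair share 1 deposited list, so no value below has a replicate error and no test between the lines was possible. One line stands for each phase of therapy, so line and phase cannot be told apart.

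The neural crest is a migratory embryonic cell population that forms at the border of the neural plate and gives rise to peripheral neurons, Schwann cells, melanocytes and the facial skeleton. PAX3, PAX7, MSX1, MSX2 and TFAP2A mark the border, and FOXD3, SNAI2, SOX9 and SOX10 then specify the crest and its derivatives. The crest is among the proposed origins of Ewing sarcoma, and PAX7 protein is used as a diagnostic marker of this tumour. H3K27ac, acetylation of lysine 27 of histone H3, marks active promoters and enhancers. SMC1 is a subunit of cohesin, the ring complex that holds chromatin loops, and BORIS (CTCFL) is a germ-line paralog of the insulator protein CTCF.

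RefSeq promoter sequences were available for 7 of the 10 genes, in 8 entries. SNAI2, SOX9 and SOX10 had no entry. The 250 bases before the gene start are shown for FOXD3, the window where acetylation and BORIS were listed in TC-71 alone, and for PAX3 and PAX7, paralogs that share a paired domain and a homeodomain. Positions are on GRCh38.p14, another build than that of the peaks, so the overlap of these bases with the peaks was not determined. Sequences are printed 5′ to 3′ along the gene, and capitals mark CCCTC, the core of the CTCF-type motif, on either strand.
FOXD3 (chr1:63322317-63322566, plus strand): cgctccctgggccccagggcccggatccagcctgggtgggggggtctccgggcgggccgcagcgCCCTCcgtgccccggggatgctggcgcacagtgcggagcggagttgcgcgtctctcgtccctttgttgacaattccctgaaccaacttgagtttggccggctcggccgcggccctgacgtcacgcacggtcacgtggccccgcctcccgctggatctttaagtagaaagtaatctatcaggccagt
PAX3 (chr2:222298999-222299248, minus strand): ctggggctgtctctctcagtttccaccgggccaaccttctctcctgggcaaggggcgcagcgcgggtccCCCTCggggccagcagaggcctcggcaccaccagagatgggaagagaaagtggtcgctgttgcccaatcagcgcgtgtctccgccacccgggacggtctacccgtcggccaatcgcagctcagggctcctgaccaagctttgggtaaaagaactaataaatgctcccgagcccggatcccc
PAX7 (chr1:18630596-18630845, plus strand): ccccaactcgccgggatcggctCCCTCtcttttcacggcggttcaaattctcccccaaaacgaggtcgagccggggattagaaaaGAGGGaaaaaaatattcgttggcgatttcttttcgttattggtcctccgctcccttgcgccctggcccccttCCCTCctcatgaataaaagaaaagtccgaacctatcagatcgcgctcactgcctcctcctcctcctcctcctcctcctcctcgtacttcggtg
CCCTC was found 1 time before FOXD3, 1 time before PAX3 and 3 times before PAX7, and 66.6% of 35116 human promoters of this length held it, with a median of 1 match. The other members had 4 matches (MSX1), 3 (MSX2), 0 (TFAP2B), and 14 and 1 in the 2 entries of TFAP2A. Of the 8 entries, 0 held 2 adjacent copies of GGAA, the tetranucleotide repeated in EWSR1-FLI1 binding sites, on either strand, against 3.06% of all promoters. These are matches of letters and not sites of binding.

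Acetylation was listed in the PAX7, PAX3, MSX1, MSX2, TFAP2A, SNAI2 and SOX10 windows in both lines. The FOXD3 and TFAP2B windows held it in TC-71 alone, and the SOX9 window in neither. Domains were therefore listed in 7 windows in TC-32 and in 9 in TC-71. SOX10 counts only by a domain across the lower window edge, with 0.453 kb inside in TC-32 and 1.19 kb in TC-71. Its place relative to the SOX10 gene was not assigned. For comparison, 36.5% of all 60 kb tiles of chromosomes 1 to 22 and X held a domain in TC-32 and 28.1% in TC-71. These tiles include gene-poor sequence. Each line had 32 domains in the windows, which covered 94.7 kb in TC-32 and 59.7 kb in TC-71, or 12.46% and 7.85% of the windows. Over chromosomes 1 to 22 and X, domains covered 2.15% and 1.41% of the sequence. The ratio of covered bases between the lines was 1.59 in the windows and 1.53 over the whole lists, so any ratio of a single gene is read against this longer TC-32 list.

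**Figure D1:**
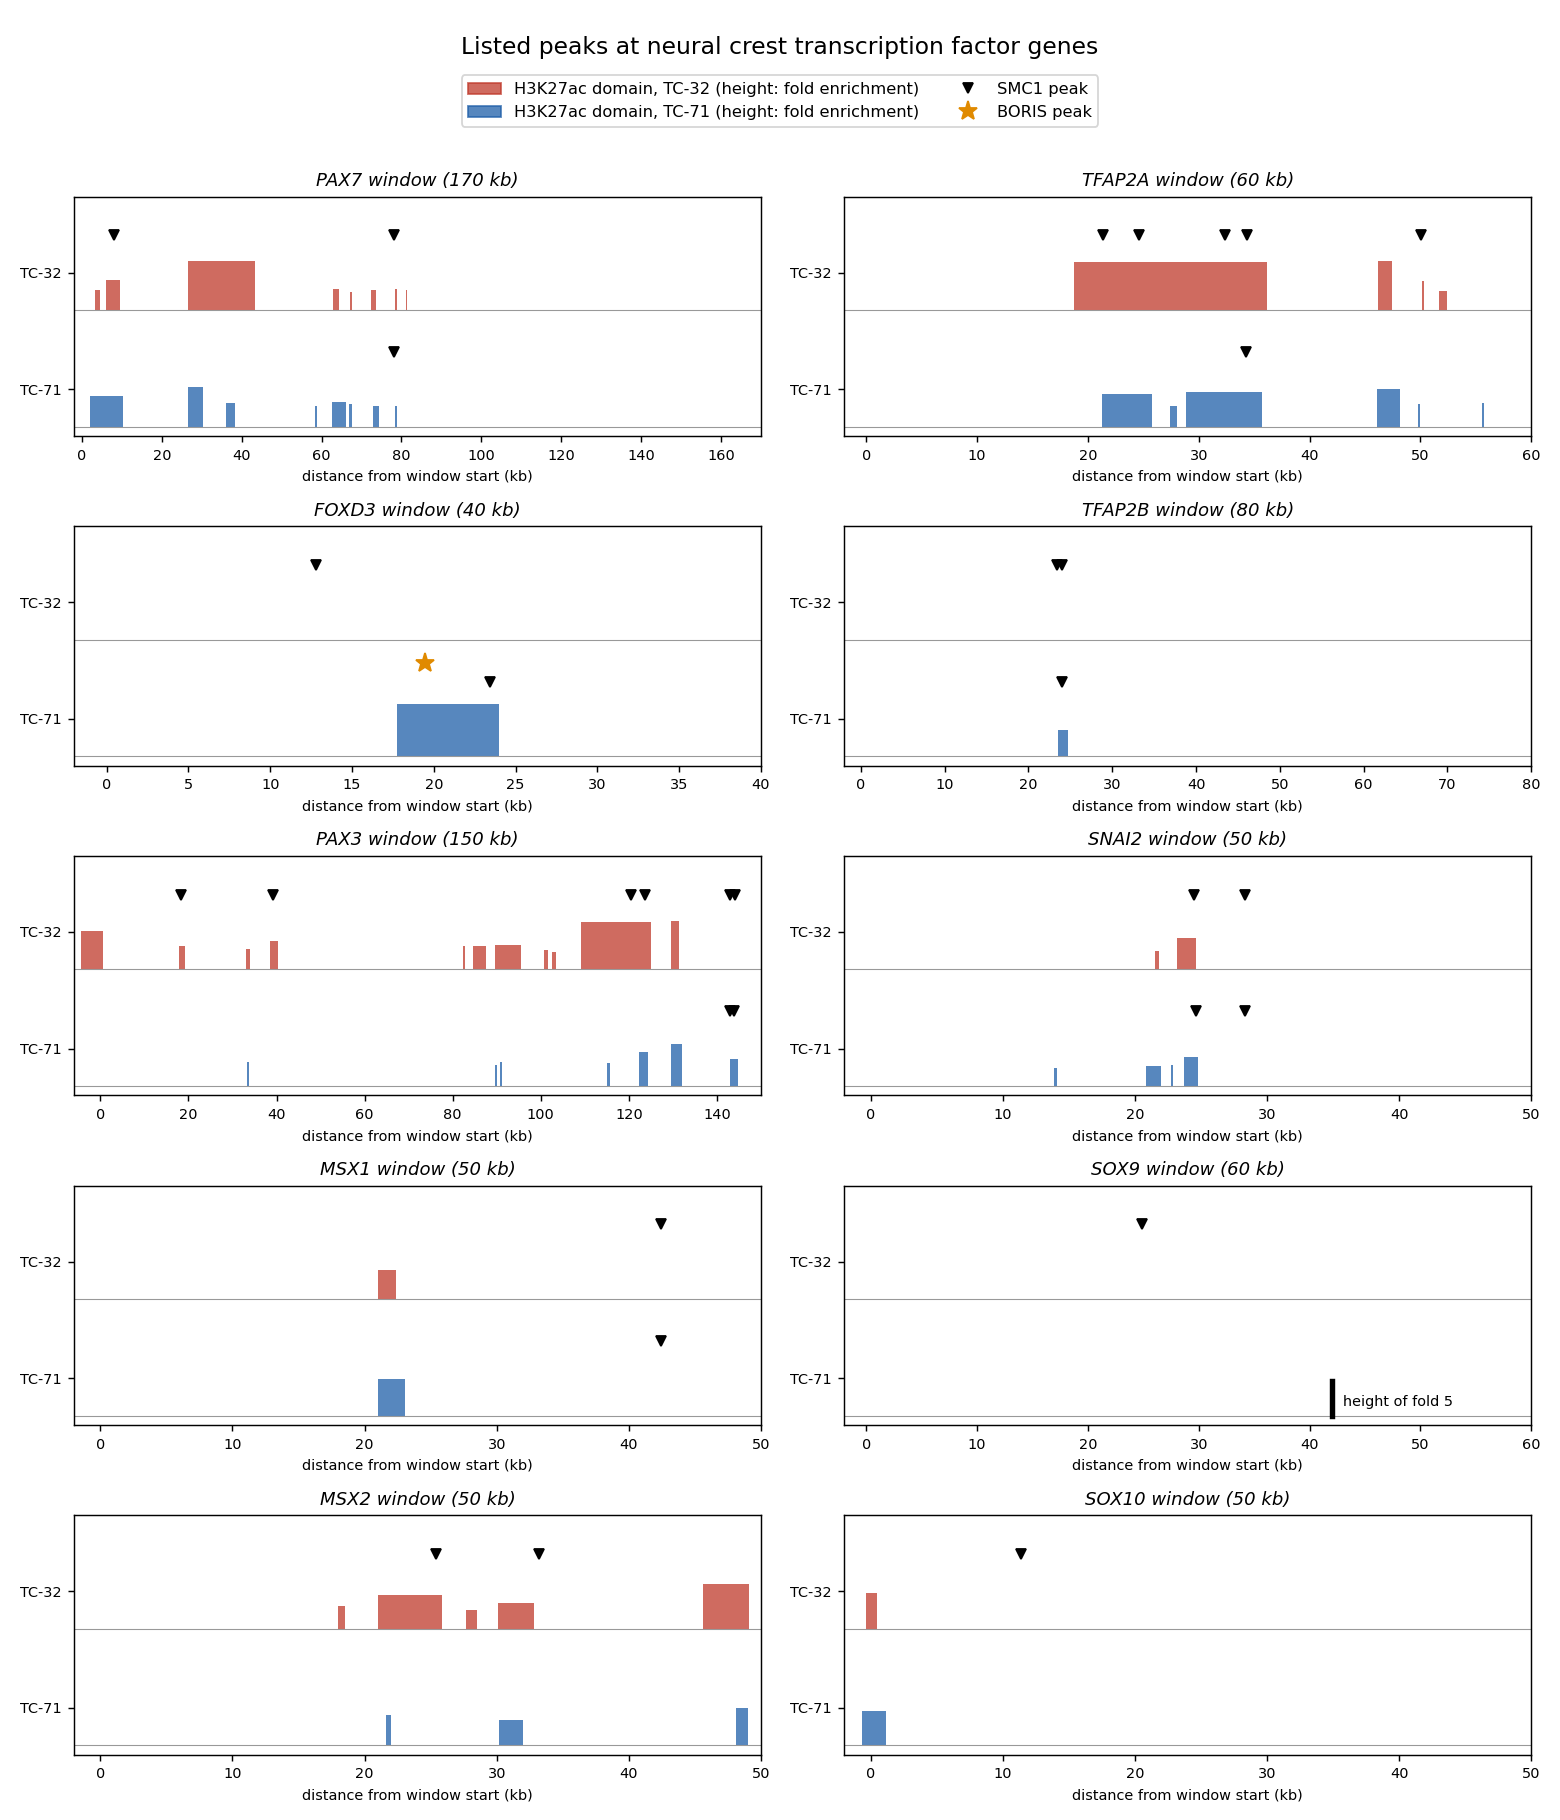
Peaks listed in each gene window, drawn along the distance from the window start in kb, with TC-32 above TC-71. Boxes are H3K27ac domains whose height is the authors' fold enrichment (the black bar in the SOX9 panel is the height of fold 5), triangles are SMC1 peaks and the star is the BORIS peak. FOXD3 and TFAP2B have boxes in TC-71 alone, and SOX9 has none.

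Most domains in the windows had a counterpart in the other line, and FOXD3 and TFAP2B had none. In TC-32, 20 of the 32 domains were shared, meaning that they met a domain of the other line (62.5%, exact Clopper-Pearson 95% interval 43.7 to 78.9%), against 47.1% of the whole list. In TC-71, 24 of 32 were shared (75%, 56.6 to 88.5%), against 67.3%. These intervals, and those below, cover counting error only. They treat peaks as independent, although many lie close together in 1 window, such as 11 of the 32 TC-32 domains at PAX3. They may therefore be too narrow. By bases, 39.2 kb were acetylated in both lines, 41.4% of the TC-32 and 65.6% of the TC-71 bases in the windows, close to 42.5% and 65.1% over the whole lists. The 10 genes together thus divided between the lines much as all domains did. Single genes differed: FOXD3 and TFAP2B had no shared base, all TC-71 bases at MSX2 lay within 24.7% of its TC-32 bases, and all TC-32 bases at MSX1 and SOX10 were also acetylated in TC-71.

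**Figure D2:**
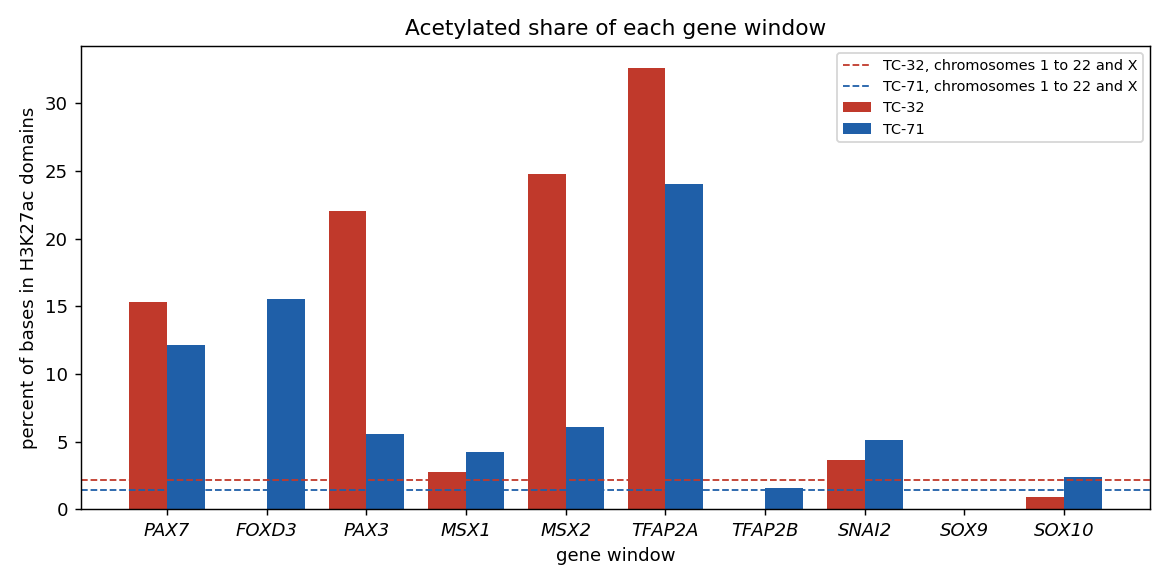
Percent of bases in H3K27ac domains in each gene window for TC-32 (red) and TC-71 (blue), 1 bar per deposited list and so without error bars. Dashed lines give the same percent over chromosomes 1 to 22 and X (2.15% and 1.41%). TFAP2A had the highest bar in each line, and PAX3 and MSX2 show the widest gap in favour of TC-32.

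The paired-box genes PAX3 and PAX7, which act early at the neural plate border, were both broadly acetylated in TC-32. The PAX7 window (chromosome 1, 18930001 to 19100000, hg19) held 26.0 kb of acetylation in TC-32 and 20.6 kb in TC-71, each in 8 domains, of which 7 in each line overlapped the other line. Its largest TC-32 domain ran 16832 bp (18956498 to 18973329), with an authors' fold enrichment over input of 7.04. By −log10 q it stood at percentile 89.4 of the TC-32 list, and by width at percentile 99.7. In TC-71 the same stretch was listed as separate domains of 3695 bp (18956527 to 18960221, fold 5.71) and 2298 bp (18966027 to 18968324, fold 3.33). The widest TC-71 domain at PAX7 lay elsewhere, at 18932030 to 18940270 (8241 bp, fold 4.31), where TC-32 had domains of 1302 bp and 3337 bp. Further into the window a run of weaker domains with folds of 2.60 to 3.52 appeared in both lines, all at overlapping positions except 1 domain of TC-32 alone (19011015 to 19011487) and 1 of TC-71 alone (18988450 to 18988722). With lists of equal length PAX7 came to 21.8 kb against 20.6 kb.

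PAX3 showed more acetylation in TC-32. Its window (chromosome 2, 223040001 to 223190000) held 33.1 kb in 11 domains in TC-32 and 8.30 kb in 7 domains in TC-71, a ratio of 3.99. Only 17.4% of the TC-32 bases were acetylated in TC-71, while 69.4% of the TC-71 bases were acetylated in TC-32. A TC-32 domain of 15805 bp (223149214 to 223165018, fold 6.78) faced TC-71 domains of 695 bp (223155110 to 223155804, fold 3.25) and 2055 bp (223162258 to 223164312, fold 4.83). The neighbouring domain at 223169534 to 223171309 was alike in the lines, with folds of 6.92 in TC-32 and 6.06 in TC-71 and widths of 1776 bp and 2419 bp. Of the 12 member domains listed in TC-32 alone, 7 were at PAX3, among them one of 5053 bp that crosses the lower window edge (223035564 to 223040616, fold 5.51). The window also held 1 domain of TC-71 alone, at 223182986 to 223184873 (1888 bp, fold 3.85). The PAX3 ratio was 4.32 where −log10 q reached 5, 3.77 with lists of equal length and 3.14 with 100 kb added on each side. Each is above 1.53, the ratio of the full lists, which was not computed again for the shortened lists.

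MSX1 and MSX2 are related homeobox repressors of the plate border and of the skull and tooth germs, and they differed from each other. MSX1 (window on chromosome 4, 4840001 to 4890000) had a single domain in each line, of 1362 bp in TC-32 (4861051 to 4862412, fold 4.20) and 2114 bp in TC-71 (4860982 to 4863095, fold 5.17). The TC-71 domain contained the TC-32 one, and no further domain was listed within 100 kb of the window in either line. MSX2 (chromosome 5, 174130001 to 174180000) held 12.4 kb in 5 domains in TC-32 and 3.06 kb in 3 domains in TC-71, a ratio of 4.05. All 3 TC-71 domains lay inside TC-32 domains. The strongest was at 174175636 to 174179090 in TC-32 (3455 bp, fold 6.40) and at 174178092 to 174178987 in TC-71 (896 bp, fold 5.35). At 174151042 to 174155882 TC-32 had a domain of 4841 bp (fold 4.77), where TC-71 had 377 bp (fold 4.30). In TC-32, 5 more domains lay within 100 kb of the MSX2 window, and none (0) in TC-71. MSX2 came to 3.79 times more bases in TC-32 with lists of equal length and to 8.67 times more where −log10 q reached 5.

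TFAP2A encodes the AP-2 alpha factor needed for crest induction, and it had the densest acetylation of the 10 windows in both lines. Its window (chromosome 6, 10380001 to 10440000) was 32.6% acetylated in TC-32 (19.6 kb) and 24.0% in TC-71 (14.4 kb). Of all 60 kb tiles, 99.5% were less acetylated than this in each line. A TC-32 domain of 17362 bp (10398759 to 10416120, fold 6.78) was the widest of all member domains, at width percentile 99.8 of its list. TC-71 split the stretch into domains of 4547 bp (fold 4.71), 573 bp (fold 2.94) and 6785 bp (fold 4.93). A second site at 10426159 to 10427449 had a fold of 7.02 in TC-32, and its counterpart at 10426061 to 10428197 had 5.43 in TC-71. In all, 13.2 kb were acetylated in both lines, 67.4% of the TC-32 and 91.6% of the TC-71 bases. Its paralog TFAP2B (chromosome 6, 50760001 to 50840000) differed. It had no domain (0) in TC-32, where the nearest was 636 kb from the window, and 1 domain of 1259 bp in TC-71 (50783474 to 50784732, fold 3.80, percentile 45.8).

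FOXD3, a forkhead factor of early crest cells and of pluripotent cells, had acetylation, SMC1 and BORIS in TC-71. The window (chromosome 1, 63770001 to 63810000) held 1 TC-71 domain of 6209 bp (63787758 to 63793966), with a fold of 7.43, the highest of all member domains in that line. It stood at percentile 92.8 of the TC-71 list, and among the 8613 TC-71 domains that met no TC-32 domain it ranked 11 by −log10 q and 59 by width. TC-32 had no domain (0) in the window, and its nearest lay 22.8 kb above the window (63832820 to 63834066, fold 5.99). The surroundings differed too, with 9 further TC-71 domains and 1 TC-32 domain within 100 kb of the window, and 19.6 kb against 1.25 kb acetylated in the widened window. Lists of equal length and a −log10 q of at least 5 left the values of the FOXD3 window as they were, which was fixed in advance. Both settings only remove peaks, so neither could add a TC-32 domain. The TC-71 domain has a −log10 q of 27.6, and equal length leaves the shorter TC-71 list whole.

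SNAI2, SOX10 and SOX9, like MSX1 and TFAP2B above, had at most 2.57 kb of acetylation in either line. SNAI2, the zinc-finger repressor Slug of migrating crest cells, had 1.82 kb in 2 domains in TC-32 and 2.57 kb in 4 domains in TC-71 (window on chromosome 8, 49810001 to 49860000). The stronger domain of each line was at one place, 49833187 to 49834657 in TC-32 (fold 4.41) and 49833736 to 49834788 in TC-71 (fold 4.16). The order at SNAI2 turned where −log10 q reached 5, to 1.47 kb in TC-32 and 1.05 kb in TC-71, and with 100 kb added on each side, to 9.29 kb and 5.21 kb. SOX10, the factor of Schwann cells and melanocytes (chromosome 22, 38350001 to 38400000), had in each line a single domain, which crosses the lower window edge and covered 0.453 kb of the window in TC-32 and 1.19 kb in TC-71. These domains, at 38349669 to 38350453 (fold 5.07) and 38349378 to 38351191 (fold 4.93), are the only acetylation of the SOX10 window. With 100 kb added on each side the order turned, to 7.28 kb in TC-32 and 3.92 kb in TC-71. SOX9, a regulator of crest and cartilage (chromosome 17, 70090001 to 70150000), had no domain (0) in either line or within 100 kb on each side. The nearest lay 222 kb above its window in TC-32 and 792 kb above it in TC-71. A window without a listed domain is below the authors' threshold, and whether weaker acetylation was present is not known from the lists.

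Member domains were not higher in fold than other domains. The median fold was 3.40 in TC-32 against 3.53 over the list, and 3.55 against 3.81 in TC-71. Median widths were 1332 bp against 1269 bp, and 1198 bp against 1146 bp. By rank too they were spread over the lists, with a median percentile by −log10 q of 49.7 in TC-32 and 45.2 in TC-71. Above percentile 80 stood 7 of the 32 domains in TC-32, at PAX7, PAX3, MSX2, TFAP2A and SNAI2. In TC-71 only 3 of 32 did, 1 each at FOXD3, PAX7 and PAX3.

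**Figure D3:**
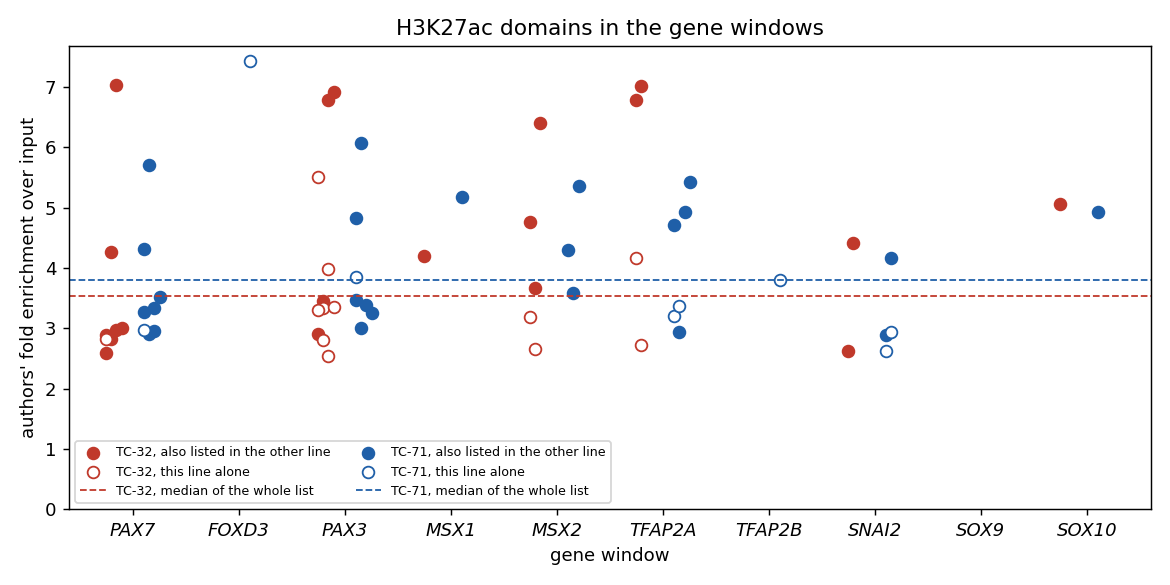
Authors' fold enrichment of every H3K27ac domain in the gene windows, for TC-32 (red) and TC-71 (blue). Filled points overlap a domain of the other line, open points do not, and dashed lines are the medians of the whole lists (3.53 and 3.81). The open TC-71 point at FOXD3 (7.43) is the highest of the plot.

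Neighbouring domains were stitched into clusters, at the distance customary for super-enhancers, and ranked by length times fold, and the clusters above the bend of the rank curve were called top clusters. In TC-32, 3 windows held one, PAX3 (rank 106, 7 domains over 48.9 kb), TFAP2A (rank 161, 33.6 kb) and PAX7 (rank 186, the single domain of 16832 bp), of 901 top clusters in all. In TC-71 only TFAP2A did (rank 302 of 670, 6 domains over 34.5 kb). Of all 60 kb tiles, 2.75% met a top cluster in TC-32 and 1.99% in TC-71, but the windows of PAX7 (170 kb) and PAX3 (150 kb) are longer than a tile. FOXD3 fell just short in TC-71, at rank 695, and PAX7 and PAX3 ranked 1027 and 1194 there. With stitching at 5 kb, the TC-71 windows with a top cluster were TFAP2A, PAX7 and FOXD3, and with clusters ranked by covered length they were TFAP2A and PAX7. The contrast at PAX7 was thus absent under both alternatives, while PAX3 was a top cluster in TC-32 alone under each of the 3 rankings tried.

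SMC1 was listed in all 10 windows in TC-32, with 23 peaks, and in 7 windows in TC-71, with 9 peaks. Of all 60 kb tiles, 40.5% held SMC1 in TC-32 and 27.2% in TC-71. MSX2, SOX9 and SOX10 had SMC1 in TC-32 alone. The whole SMC1 lists hold 32720 intervals in TC-32 and 18264 in TC-71. With lists of equal length TC-32 had 11 peaks beside the 9 of TC-71. None of these 11 lay at PAX7, FOXD3 or PAX3, where the best TC-32 peaks ranked 21941, 21232 and 21858 by −log10 q. These 3 windows would then hold SMC1 in TC-71 alone, so the counts of 10 and 7 windows depend on list length. Of the 23 TC-32 peaks, 8 overlapped a TC-71 peak (34.8%, 16.4 to 57.3%), against 50.3% of the list, and of the 9 TC-71 peaks 8 overlapped a TC-32 peak (88.9%, 51.8 to 99.7%), against 90.3%. Both intervals include the share of the list. With lists of equal length, 5 of the 9 TC-71 peaks were shared. The 8 shared sites had summits 7 to 35 bp apart, with a median of 21.5 bp.

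The SMC1 peak of highest fold in TC-32 was at MSX1, away from its acetylated domain, while in TC-71 it was at TFAP2B (fold 8.04). The MSX1 peak lay at 4882313 to 4882553 in TC-32 (fold 16.6, percentile 91.6) and at 4882317 to 4882537 in TC-71 (fold 6.82, percentile 52.6), and no H3K27ac domain covered it in either line. By the TC-32 positions, SNAI2 had shared sites at 49834255 to 49834736 (fold 7.77 in TC-32 and 4.66 in TC-71), within acetylation in both lines, and at 49838160 to 49838535 (9.13 and 6.73), in neither. At PAX7 the shared site at 19007962 to 19008207 (fold 4.06 in TC-32 and 6.98 in TC-71) lay outside acetylation in both lines. The shared TFAP2A site at 10414133 to 10414534 (6.61 and 3.87) lay inside it in both. TC-32 had 4 further SMC1 peaks at TFAP2A, all overlapping its acetylated domains, the strongest at 10404182 to 10404989 (fold 8.45). Folds of separately called lists are set side by side here as description and do not measure a difference between lines.

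**Figure D4:**
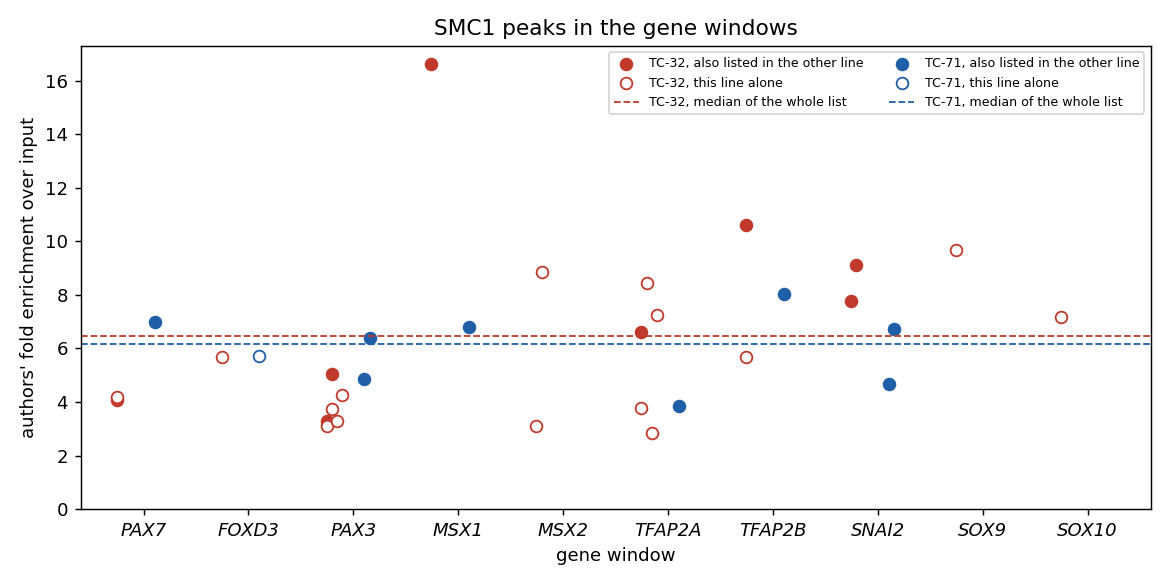
Authors' fold enrichment of every SMC1 peak in the gene windows, for TC-32 (red) and TC-71 (blue). Filled points overlap an SMC1 peak of the other line, open points do not, and dashed lines are the medians of the whole lists (6.48 and 6.16). MSX2, SOX9 and SOX10 show TC-32 points alone, and MSX1 holds the highest point (16.6).

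At 3 shared cohesin sites the lines differed in acetylation, each time with acetylation in TC-71 alone. These were a pair at PAX3, at 223182729 to 223183124 (fold 3.31 in TC-32 and 4.86 in TC-71) and 223183914 to 223184077 (5.04 and 6.39), which lie at the TC-71 domain of that window, and the TFAP2B site at 50783895 to 50784121 (10.6 and 8.04). The PAX3 site at 223182729 only overlapped the edge of that domain. Its summits lay outside the domain, by 114 bp in TC-32 and 141 bp in TC-71. Of the other shared sites, 2 were acetylated in both lines, 3 in neither and 0 in TC-32 alone. At TFAP2B, TC-32 thus had SMC1 peaks at 50783214 to 50783486 (fold 5.67) and at the shared site where the nearest TC-32 domain was 692 kb from the summit of the shared site.

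SMC1 lay in acetylated domains of its line in a larger share of the window peaks than of the lists. In TC-32 this held for 12 of 23 peaks (52.2%, 30.6 to 73.2%), against 25.9% of the list, and in TC-71 for 6 of 9 (66.7%, 29.9 to 92.5%), against 13.6%. The windows were placed on genes and are more acetylated than the rest of the sequence, and this was not adjusted for. Many of the TC-32 peaks were weak, with a median percentile of 35.0 and a median fold of 5.67 against 6.48 over the list. Those in acetylation ran from percentile 2.03 (PAX3) to 71.7 (SNAI2), and at PAX3 none was above 19.8. In TC-32 the count was 10 of 15 (66.7%, 38.4 to 88.2%) for peaks listed in that line alone, against 36.5% of the list, and 2 of 8 (25%, 3.19 to 65.1%) for shared ones, against 15.4%. Of the 10 TC-32-only cohesin peaks in acetylation, 6 also overlapped a TC-71 domain, of which 4 were at TFAP2A, 1 at PAX7 and 1 at PAX3. At 1 of those at TFAP2A (10429874 to 10430151) the peak met a short domain of each line at different bases, and its summit lay outside both. The other 4, at PAX3 (3 peaks) and MSX2 (1 peak), overlapped no TC-71 domain. From the side of acetylation, 9 of 32 member domains held SMC1 in TC-32 (28.1%, 13.7 to 46.7%), against 19.1% of the list, and 5 of 32 in TC-71 (15.6%, 5.28 to 32.8%), against 8.84%. With lists of equal length, 4 of 11 TC-32 peaks lay in acetylation (36.4%), all of them at TFAP2A and SNAI2. With 100 kb added on each side the counts were 18 of 50 in TC-32 (36%) and 9 of 24 in TC-71 (37.5%). Where −log10 q reached 5, the counts were 8 of 19 in TC-32 (42.1%) and 5 of 8 in TC-71 (62.5%). The shares of 25.9% and 13.6% belong to the full lists. They were not computed for lists of equal length or for the stricter −log10 q, so no excess is shown there.

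SOX9 and SOX10 each had 1 cohesin peak, outside acetylation. The SOX9 peak (70114803 to 70115019, fold 9.68, percentile 62.7) had its summit 257 kb from the nearest TC-32 domain. The SOX10 peak (38361248 to 38361471, fold 7.18, percentile 50.5) was 10.9 kb from the nearest. Neither was listed in TC-71, where the nearest SMC1 peaks were 422 kb and 31.1 kb away.

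BORIS was listed at 1 of the 10 genes, FOXD3, and in TC-71 alone. No window (0 of 10) held a BORIS peak in TC-32, whose list has 6 intervals, and 1 of 10 did in TC-71, whose list has 534. Of all 60 kb tiles, 0.0119% held BORIS in TC-32 and 1.02% in TC-71. The FOXD3 site was an 85 bp peak at 63789398 to 63789482, with a fold of 5.85 against a list median of 5.98, and a −log10 q of 6.77, at percentile 26.8 of the TC-71 list. It lay within the acetylated domain of TC-71, with its summit 3901 bp from the SMC1 peak in the same domain (63793342 to 63793518, fold 5.73). Of the 9 TC-71 SMC1 peaks in the windows, this was the 1 without a TC-32 counterpart. TC-32 had 1 SMC1 peak in the window at another place, 63782711 to 63782879 (fold 5.67), 10.6 kb from the TC-71 peak and outside acetylation in both lines. Of the 32 TC-71 member domains, 1 held BORIS (3.12%, 0.0791 to 16.2%), against 1.14% of the list. Among domains of TC-71 alone this was 1 of 8 in the windows and 19 of 8613 in the list, or 0.221%. With 100 kb added to each side, 1 more BORIS peak came in, beside SOX10.

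Other neural crest genes were counted the same way, with windows set by hand. These windows, and those of the Ewing sarcoma markers below, ran from 60 kb to 1080 kb (SOX5). A longer window meets a peak more readily, and this was not adjusted for. As background, a domain was held by 36.5% of all 60 kb tiles in TC-32 and 28.1% in TC-71. BORIS was held by 0.0119% and 1.02% of the tiles. Of 12 further regulators, SNAI1, ETS1, SOX8, SOX5, ID3, TFAP2C, MYCN, FOXC1, DLX5, GBX2, NR2F1 and NR2F2, 7 had a domain in TC-32 and 8 in TC-71. The highest acetylated shares were at ID3 (29.6% in TC-32 and 29.4% in TC-71), a helix-loop-helix inhibitor, and in TC-32 at the nuclear receptor gene NR2F1 (25.7%, against 3.98% in TC-71). FOXC1 was acetylated in TC-32 alone, DLX5 and MYCN in TC-71 alone, and ETS1, TFAP2C and GBX2 in neither. Of 6 genes of crest derivatives, NGFR, ERBB3, HAND2 and RET had domains in both lines, and EDNRB and MITF in neither. BORIS was listed at none (0) of the windows of these regulators and derivative genes in either line. The median acetylated share was 3.19% in TC-32 and 5.33% in TC-71 over the 10 windows described above, 1.67% and 2.09% over the 12 regulators, and 2.99% and 1.49% over the 6 derivative genes. Domains were listed in both lines at all 8 windows of Ewing sarcoma markers (NKX2-2, NR0B1, CCND1, CAV1, BCL11B, PRKCB, STEAP1 and GLI1), with median shares of 22.1% and 13.04%, and BORIS was listed in TC-71 at 2 of these, CAV1 and STEAP1.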

How the data were processed

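Chromatin was crosslinked with formaldehyde, sonicated and immunoprecipitated, per the labels' protocols. The build was hg19 and the tools were MACS2 2.1.1, STAR 2.5.1b, deepTools 2.2.4, Picard and SAMtools 1.3.1, per the submitters' processing notes, which give no roles. Of the settings and the pooling of replicates, neither is given in the sources used here. The authors deposited, for each peak, a score, a fold enrichment (a ratio over input background), a −log10 p and a −log10 q, whose smallest value was near 2 except in the short TC-32 BORIS list. These are the authors' own values and rank peaks within a list. Depth per sample is unknown.

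Repeated summits were reduced to 1 interval with the highest −log10 q, on chromosomes 1 to 22 and X. Overlap meant at least 1 bp. A percentile is the rank of an interval's −log10 q in its list. Whole lists and all 60 kb tiles served as background. Windows of the further genes were set by hand around known hg19 positions and not checked against an annotation, and part of the list of derivative genes is not reported here. No hg19 annotation was used here, so promoters, exons and introns were not assigned. RefSeq sequences are on GRCh38.p14. The members and lists were chosen with earlier results of these data known. All 10 members are described, by their strongest peaks per list and every BORIS peak. The alternatives tried were a stricter list (−log10 q from 5 up), 50% of the peak covered, equal lists (highest −log10 p first), windows wider by 100 kb, merging at 1 kb, stitching at 5 kb and ranking by length. The overlap code, in Python 3.11.15 with pandas 2.3.3, scipy 1.17.1 and numpy 2.4.6, was tested on simulated data. Plots used matplotlib 3.10.9.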

Additional observations from a re-analysis of the deposited data

How the results depend on the processing

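No paired analysis was possible because both replicates of a line and antibody share 1 deposited list, and no replicate could be left out. Lists of equal length were not run for BORIS, where 1 list has 6 intervals. Of 58 alternative values of the main results, 47 stayed within 1.5 times the count or inside the interval of the share, and 11 moved. The intervals are wide, so staying inside one says little. Shared TC-71 SMC1 peaks went from 88.9% to 55.6% with lists of equal length and counted as staying. So did TC-71 SMC1 peaks in acetylation, from 66.7% to 37.5% with wider windows. Equal length leaves the shorter TC-71 lists whole, so their peak counts could not move there. The stricter −log10 q of 5 left 18 H3K27ac domains in TC-32 and 16 in TC-71. Widening the windows by 100 kb added sequence by construction and gave 54 domains in TC-32 and 54 in TC-71, 50 and 24 SMC1 peaks, 2 BORIS peaks in TC-71 and 90.5 kb of TC-71 acetylation. Lists of equal length left 11 SMC1 peaks in TC-32. TC-71 windows with a top cluster numbered 3 with stitching at 5 kb and 2 with ranking by covered length; the cause was not tested. Acetylated bases of single genes kept within 1.5 times in 50 of 60 alternatives, but part of these could not move. Equal length fixed every TC-71 value in advance. Equal length and the stricter −log10 q only remove peaks. They could therefore not change windows without a domain, which were FOXD3 and TFAP2B in TC-32 and SOX9 in both lines. The count of 50 thus overstates how stable the values were. Peak lists do not show signal below the authors' threshold, which limits statements on windows with no peak.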
